A study of Mus musculus with 44 samples.

Results

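A break made by the enzyme AsiSI on chromosome 2 was followed in mouse embryonic fibroblasts. Among AsiSI sites on other chromosomes, the breaks near Mex3a on chromosome 3 and near Rcor1 on chromosome 12 joined to it most often. Their junctions were read by high-throughput genome-wide translocation sequencing (HTGTS). Members were all junctions within 500 bp of chr3:88531590 or chr12:111039093 on mm10. They numbered 1350 near Mex3a and 1190 near Rcor1, together 2540 of the 148726 junctions in 32 libraries and of the 100128 junctions that lay on a chromosome other than the bait's. The pair was chosen from its junction numbers in the DMSO libraries of the CK-666 experiment, so its levels there are a description and were not tested. The window has a soft edge on the Mex3a side: 16 Mex3a junctions lay between 400 and 500 bp from the cut and 9 between 500 and 600 bp, against 2 and 5 near Rcor1.

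HTGTS starts from a primer beside a known "bait" break and reads outwards across it, so that every read shows which "prey" sequence the bait end was joined to. The bait, and almost every frequent prey, was a cut made by AsiSI, a rare-cutting restriction enzyme that leaves short 3′ overhangs. Cells rejoin such ends mainly by non-homologous end joining, in which Ku and the kinase DNA-PKcs hold the ends and ligase IV seals them, often with little loss of sequence. Ends that are resected first can be joined instead at short matching stretches, called microhomology. The ARP2/3 complex, which nucleates branched actin and is activated by WASP-family proteins, takes part in moving breaks within the nucleus.

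All libraries came from C57BL/6 mouse embryonic fibroblasts whose genotype the labels give as WT. In 26 libraries the cells were an AsiSI-MEF line carrying an inducible AsiSI fused to the oestrogen receptor. They received doxycycline (3 µg/ml, 24 h) with 4OHT (1 µg/ml) over the last 6 h, which brings the enzyme into the nucleus. Of the 13 control libraries, 6 received DMSO beside 6 libraries given the ARP2/3 inhibitor CK-666 (100 µM). A further 3 received DMSO beside 3 given the DNA-PKcs inhibitor NU7441 (10 µM, from 1 h before damage), and 2 received DMSO beside 2 given the WASP-family inhibitor wiskostatin (3 µM). In the last experiment 2 libraries had an empty vector and 2 a plasmid for nuclear actin R62D-NLS, an actin that does not polymerise. The other 6 libraries, 3 with DMSO and 3 with CK-666, came from MEFs without AsiSI in which Cas9 and a guide RNA made the bait cut, although their labels also name 4OHT. The AsiSI libraries held 362 to 18428 junctions each (median 4748), of which 246 to 13241 lay on other chromosomes. The library with the fewest was CK-666 replicate 2.

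The sequences at the 3 cuts are shown because they decide what a join of undamaged ends looks like. All are plus-strand mm10 sequence (GRCm38.p6), 5′ to 3′, with the AsiSI motif in capitals.
Mex3a, chr3:88531575-88531604: ccgtggactccGCGATCGCgcgcgggagga
Rcor1, chr12:111039078-111039107: tggggcgtaaaGCGATCGCaaacctcaaac
Bait, chr2:13271306-13271335: accctgtcccaGCGATCGCgcaggcgcaca

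The Mex3a motif occupies chr3:88531586-88531593 and lies in no annotated gene. It is 805 bp upstream of the GENCODE start of Mex3a (ENSMUSG00000074480, plus strand, start 88532395), and 356 bp upstream of the RefSeq start. Mex3a encodes an RNA-binding protein with KH domains. The Rcor1 motif, chr12:111039089-111039096, is likewise intergenic, 258 bp upstream of the GENCODE start of Rcor1 (ENSMUSG00000037896, plus strand, start 111039351) and 274 bp upstream of the RefSeq start. Rcor1 encodes CoREST, the scaffold that links the demethylase LSD1 to histone deacetylases. The bait motif, chr2:13271317-13271324, falls in an untranslated exon of Rsu1, a minus-strand gene. Because both prey genes run on the plus strand, a plus-strand prey read away from either cut leads into the gene and a minus-strand prey leads away from it.

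Where 2 ends that lost no base are joined, the motif is restored once and belongs to bait and prey alike. The 4 possible products follow, with the bait arm first.
Mex3a, plus-strand prey: accctgtcccaGCGATCGCgcgcgggagga
Mex3a, minus-strand prey: accctgtcccaGCGATCGCggagtccacgg
Rcor1, plus-strand prey: accctgtcccaGCGATCGCaaacctcaaac
Rcor1, minus-strand prey: accctgtcccaGCGATCGCtttacgcccca

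Bases beside the motif that happen to match lengthen the stretch that bait and prey share, from 8 to 10 bases for the first product and to 9 for the second and the third. The observed overlaps peaked at these lengths. Of the junctions with an overlap of at least 8 bases and a prey beginning at or before the motif, 49 of 81 plus-strand and 45 of 78 minus-strand Mex3a junctions had exactly the length that the letters of the product give. Near Rcor1 the counts were 49 of 62 and 55 of 61. In the 26 AsiSI libraries the printed sequences were found in 65 and 90 Mex3a reads and in 60 and 63 Rcor1 reads. Of the 90 reads with the Mex3a minus-strand product, 24 followed that arm only a short way and then turned back, and are described with the prey that faced the cut. The same held for 6 of the 65 Mex3a and 4 of the 60 Rcor1 reads with the plus-strand product. It held for 0 of the 63 reads with the Rcor1 minus-strand product.

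Both breaks took between 1 and 3% of interchromosomal junctions in all 13 control libraries. Near Mex3a the 6 DMSO libraries of the CK-666 experiment ranged from 1.56 to 2.04% (median 1.88%). Near Rcor1 they ranged from 1.04 to 2.16% (median 1.63%). The values of these 6 libraries overlapped between the sites.

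In the 7 control libraries that had no part in the choice, the Mex3a share was 1.25, 2.20 and 1.37% (DMSO, NU7441 experiment), 1.47 and 2.26% (DMSO, wiskostatin experiment), and 1.28 and 2.51% (empty vector). The Rcor1 share in the same order was 1.54, 2.49, 1.18, 1.21, 1.24, 1.06 and 2.65%. Mex3a was the higher in 4 of the 7 libraries and Rcor1 in 3. The mean was 1.76% ± 0.536 for Mex3a and 1.62% ± 0.663 for Rcor1 (SD, n = 7), and the log2 ratio between them was 0.16 ± 0.39 (two-sided exact sign-flip permutation test, p = 0.359, n = 7). It was 0.04 without DMSO (wiskostatin experiment) replicate 2. Over all 13 controls 849 and 711 of 52525 interchromosomal junctions fell at the sites, or 1.62% (95% Wilson interval 1.51 to 1.73%) and 1.35% (1.26 to 1.46%). These intervals cover counting error only.

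**Figure D1:**
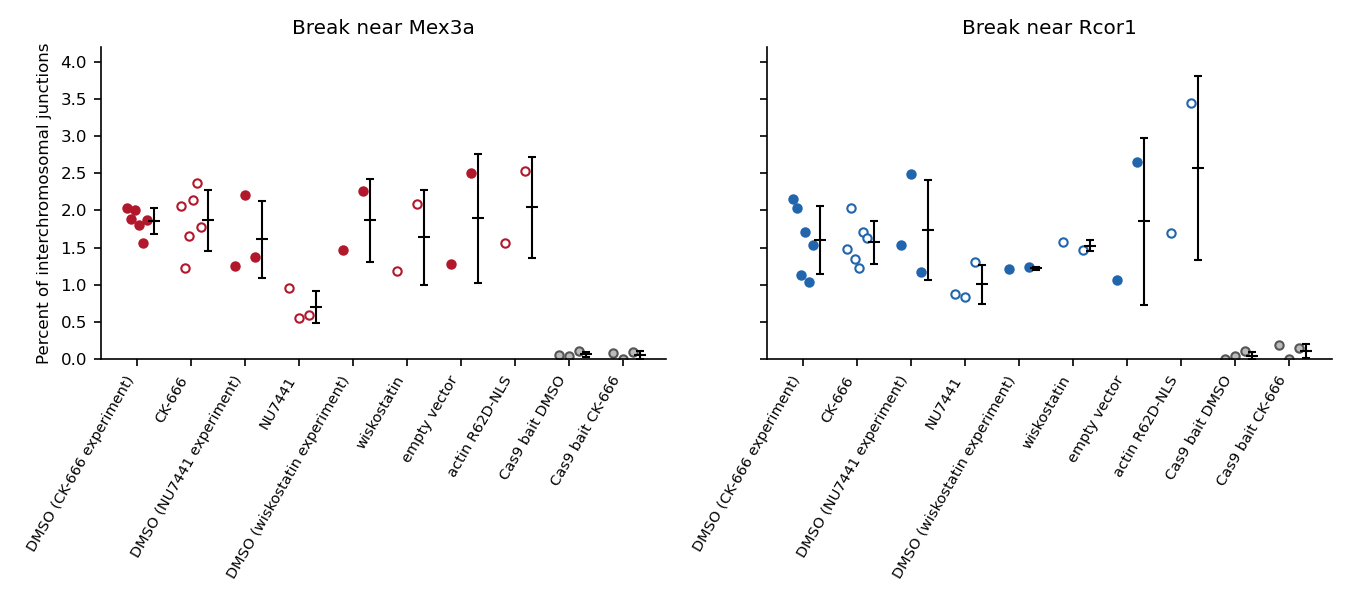
Percent of interchromosomal junctions within 500 bp of each motif in each of the 32 libraries, by group; filled points are controls, open points treated libraries, grey points Cas9 bait libraries, and bars show the mean ± SD. Both sites lie above 1% in all 13 control libraries, the 3 NU7441 libraries hold the 3 lowest Mex3a values of the AsiSI libraries, and the 6 Cas9 libraries lie near 0.

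Among 1025 AsiSI motifs outside chromosome 2, Mex3a and Rcor1 also ranked first and second in the 7 libraries left out of the choice, with 564 and 484 junctions. The next were the motifs near Cdk12 (410), which encodes a kinase of RNA polymerase II, Fam160b1 (378) and Ube2d2a (370), which encodes a ubiquitin-conjugating enzyme. As mean share these stood at 1.36, 1.07 and 0.984%. Library by library, Mex3a was in the first 3 motifs in all 13 controls and fell as low as 26th in a treated library. Rcor1 was never below 7th in a control and was in the first 5 in all 13 treated libraries.

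The share of a site moved from library to library together with that of other sites. Over the 13 controls, Spearman's rho was highest for Mex3a with the motifs near Hlx (0.907), which encodes a homeobox factor, 2410002F23Rik (0.808) and Capzb (0.786), which encodes a subunit of actin capping protein. For Rcor1 it was highest with Cdk12 (0.857), Hdgf (0.835), which encodes a growth factor of the nucleus, and Cmip (0.830). Between Mex3a and Rcor1 it was 0.593, and the median over 172 motifs was 0.308 for Mex3a and 0.214 for Rcor1. The motifs near Hlx and Capzb held only 139 and 118 junctions over the 26 AsiSI libraries, so their shares rest on few counts in a library. All of these values share the same libraries and depths, so they describe the tables only.

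The junctions lay tightly at the cut. Within 50 bp were 1163 of the 1350 Mex3a junctions and 1158 of the 1190 Rcor1 junctions. The sites parted between 50 and 100 bp, where Mex3a had 105 junctions and Rcor1 7. Further out, beyond 500 bp and up to 10 kb, the AsiSI libraries held 288 junctions around Mex3a and 115 around Rcor1. That is 21.5 and 9.77 for every 100 junctions inside the window, with a median of 14.2 over 108 other motifs that have no neighbouring motif within 20 kb (range 4.04 to 72.5). Most of the outer Mex3a junctions of the controls came from 3 deep libraries, with 103 in DMSO (NU7441 experiment) replicate 3, 53 in DMSO (wiskostatin experiment) replicate 1 and 28 in empty vector replicate 1. The other 10 controls held 0 to 12 each. The 3 libraries were also the only controls of 1 sequencing run, so depth and run cannot be told apart. For every 100 junctions inside the window they held 56.6, 40.8 and 36.8, and the other controls 0 to 13.6.

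**Figure D2:**
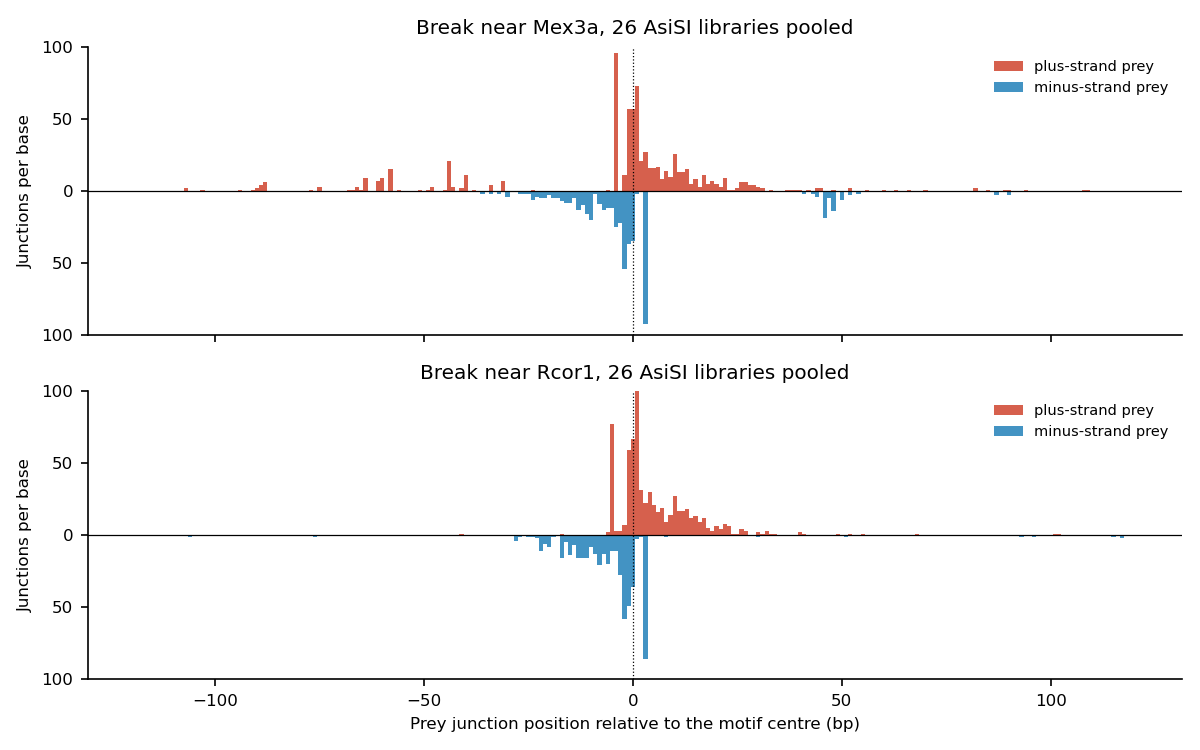
Junctions per base against position relative to the motif centre (bp) in the 26 AsiSI libraries pooled, with plus-strand prey above and minus-strand prey below the axis. Both sites peak at the motif and decline outwards on each strand, and Mex3a alone of the pair has further clusters on the opposite side, about 40 to 65 bp from the centre.

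A prey on the plus strand carries the part of its chromosome towards the telomere, and a prey on the minus strand the part with the centromere. Mouse centromeres lie at the start of each chromosome and the bait arm carries that of chromosome 2, so a plus-strand prey that leads away from its cut gives a chromosome with 1 centromere and a minus-strand prey gives one with 2. Near Mex3a the plus strand was ahead in all 13 controls, 57.5% of junctions pooled. The log2 ratio of plus to minus was 0.09 at its lowest, 0.62 at the median and 1.68 at its highest. Its mean was 0.64 ± 0.45 (SD, n = 13; two-sided exact sign-flip permutation test, adjusted p = 0.000732), and without the prey that faced the cut, described further on, it was 0.65 ± 0.62 (exact permutation test, adjusted p = 0.00293).

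Near Rcor1 the pooled share was 57.2%, but the libraries were split, with the plus strand ahead in 8, behind in 4 and level in 1. The mean log2 ratio was 0.29 ± 0.52 (SD, n = 13; exact sign-flip permutation test, adjusted p = 0.0981). The difference between the sites was 0.35 ± 0.84 and did not pass the same test (adjusted p = 0.163). At all other interchromosomal motifs together 50.1% of prey were on the plus strand. Single motifs spread widely, from 9.66 to 89.5% over the 116 others with at least 100 junctions in the controls, where Mex3a ranked 32nd and Rcor1 34th of 118.

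Prey that led away from the cut had lost few bases at either site. The distance is counted from the near edge of the motif, so that values up to 7 fall inside it. Its median was 6 at both sites, the 75th percentile 15 for Mex3a and 14 for Rcor1, and the 95th percentile 40.3 and 26. The single base with most junctions near Rcor1 was 1 bp past the motif centre on the plus strand, with 100 junctions, and the same base held 73 near Mex3a. Junctions at or before the near edge, whose prey kept the whole motif, made up 14.2% of the total near Mex3a and 14.4% near Rcor1. Those inside the motif made up 31.5 and 40.4%, those 8 to 20 bases out 22.3 and 33.8%, and those 21 to 50 bases out 9.92 and 8.41%.

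Prey that had lost the whole motif were those that began more than 7 bases out. Their mean share was higher at both sites than in the pool of all other interchromosomal motifs, but not higher than at every single motif. In the 13 controls this share ranged from 11.8 to 53.3% near Mex3a and from 7.14 to 60.7% near Rcor1. The means were 33% ± 12.5 for Mex3a, 40.6% ± 14 for Rcor1 and 22.5% ± 9.48 for all other interchromosomal motifs together (SD, n = 13). Mex3a exceeded the other motifs in 13 of 13 libraries, by 10.5 percentage points ± 7.28 (exact sign-flip permutation test, adjusted p = 0.000732). Rcor1 exceeded them in 12 of 13, by 18.1 ± 12.2 (exact permutation test, adjusted p = 0.00110). This share rose with junction number over the 118 motifs (Spearman's rho 0.458), so these tests are not independent of the choice of the pair. Among single motifs, pooled over the controls, Mex3a ranked 10th (38.6%) and Rcor1 3rd (44.3%) from the highest of 118. The others ran from 10.1 to 47.9%.

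Mex3a was below Rcor1 in 10 of 13 libraries, by 7.54 percentage points ± 9.85 (exact permutation test, adjusted p = 0.0200). This difference was -0.382 points (exact permutation test, adjusted p = 0.901) once the prey facing the cut were left out of the count. With a loss of more than 20 bases as the criterion, neither site differed from the other motifs by the test. The excess was then 2.59 points for Mex3a (exact permutation test, adjusted p = 0.127) and 1.24 for Rcor1 (exact permutation test, adjusted p = 0.583). 

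Joins that kept the whole motif, counted as an overlap of at least 8 bases with the prey beginning at or before the motif, were rarer than elsewhere. Of the 159 such Mex3a and 123 such Rcor1 junctions of the AsiSI libraries, 5 and 0 began further out and faced the cut. They made up 14.6% ± 10.6 of junctions near Mex3a and 11.9% ± 6.07 near Rcor1, against 34.7% ± 13.1 at the other motifs (SD, n = 13). In single libraries they ranged from 3.85 to 38.1% near Mex3a and from 4.49 to 22.2% near Rcor1. Both sites were below the other motifs in 13 of 13 libraries, Mex3a by 20.1 percentage points ± 6.42 and Rcor1 by 22.8 ± 8.0 (exact permutation test, adjusted p = 0.000366 each, from the smallest p that 13 libraries allow). The pair was chosen by junction number, with which this share fell, so these tests are not independent of that choice. Between the sites the difference was 2.76 points ± 5.43 (exact permutation test, adjusted p = 0.0769).

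These shares moved with the number of junctions, by which the pair was chosen. The tests against all other motifs, for motif loss as well, are therefore not independent of that choice. Over the 118 motifs, Spearman's rho between junction number and the share of whole-motif joins was -0.832, and over the 13 controls it was -0.725 at Mex3a and -0.823 at Rcor1. Reads that the authors' pipeline marked as repeats are absent from the deposited tables, and whole-motif joins fall on a single position, so their share can drop as a site fills. The part this played was not tested. A comparison with the 10 other motifs that had most junctions (424 to 565 each) was set after the values were seen. It is a description and no test is given. The pair, with 849 and 711 junctions in the same controls, lay above all 10, so junction number was not matched. The differences were smaller: -4.47 points ± 5.55 for Mex3a (lower in 12 of 13 libraries) and -7.23 ± 4.25 for Rcor1 (13 of 13). For loss of the motif the same comparison gave 5.38 points ± 7.72 for Mex3a (higher in 9 of 13) and 12.9 ± 12.8 for Rcor1 (12 of 13).

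**Figure D3:**
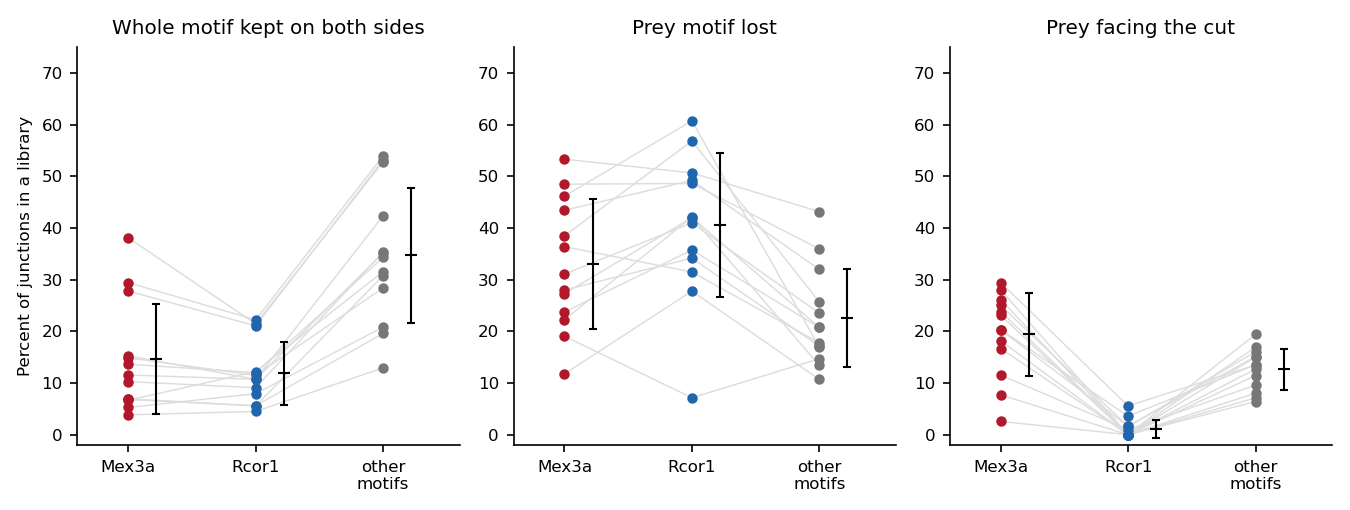
Percent of junctions in each of the 13 control libraries that kept the whole motif on both sides (left), lost the prey motif (middle) or had prey facing the cut (right), near Mex3a, near Rcor1 and at all other interchromosomal motifs; lines join the values of 1 library and bars show the mean ± SD. Both sites lie below the other motifs on the left in every library, and on the right Mex3a lies above Rcor1 in every library.

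The sites also differed in how the ends met. In the 26 AsiSI libraries, bait and prey overlapped by 6 bases or more in 16.9% of Mex3a and 13.8% of Rcor1 junctions and by 1 to 5 bases in 41.7 and 48.9%. Bait and prey abutted with neither overlap nor extra bases in 27.4 and 31.2%. Bases that belonged to neither alignment were inserted in 14 and 6.12%, and insertions of 10 bases or more numbered 36 near Mex3a and 7 near Rcor1. Over the 13 controls the insertion share was 13.3% ± 4.00 at Mex3a, 5.77% ± 4.29 at Rcor1 and 10.3% ± 2.72 at the other motifs (SD), which was not tested. On the bait side, the read reached the end of the bait motif in 23.6% of Mex3a and 10.9% of Rcor1 junctions and stopped short of the motif in 26.9 and 31.5%. Both motifs were lost in 8.43 and 11.8%. Prey that faced the cut, described next, count in these shares. They held 126 of the 317 Mex3a junctions that reached the end of the bait motif. Bases counted as inserted can be Mex3a sequence in such reads. The median was 3 such bases at -44 bp and 13 at -58 bp, where 18 of 21 and 12 of 15 junctions first carried Mex3a bases.

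Many Mex3a junctions, and few Rcor1 junctions, had prey that faced the cut. In these reads the prey alignment began more than 20 bases outside the motif and ran towards it, so that a plus-strand prey lay on the centromeric side of the cut and a minus-strand prey on the telomeric side. The definition was made after the positions had been seen, so the values are a description and no test is given. They numbered 253 of 1341 Mex3a junctions (18.9%) in the AsiSI libraries, 161 on the plus and 92 on the minus strand, and 13 of 1177 Rcor1 junctions (1.10%). With these placed on the arm in which they lay, 52.3% of Mex3a and 57.8% of Rcor1 junctions fell on the telomeric side of the cut, the side of the gene.

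By library the Mex3a share ran from 2.56 to 29.4% in the controls and the Rcor1 share from 0 to 5.56%. The ranges overlapped only through DMSO (NU7441 experiment) replicate 2, where Mex3a had 2.56% and Rcor1 0. The means were 19.4% ± 8.05, 1.02% ± 1.73 and, at the other motifs, 12.7% ± 3.98 (SD, n = 13). Mex3a exceeded Rcor1 by 18.4 points ± 7.58 (SD), in 13 of 13 libraries, and the other motifs by 6.76 ± 5.31, in 12 of 13. Rcor1 was below the other motifs in 13 of 13 libraries, by 11.7 points ± 4.07. Pooled, Rcor1 had the lowest share of the 118 motifs (0.844%), where the others ran from 0.917 to 43.1%, and Mex3a was 33rd from the highest (17.3%). The share near Mex3a was lower in the DMSO libraries of the NU7441 experiment (18.2, 2.56 and 7.69%) than in those of the CK-666 experiment (20.3 to 29.4%), so it varied between experiments as well as between sites.

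**Figure D4:**
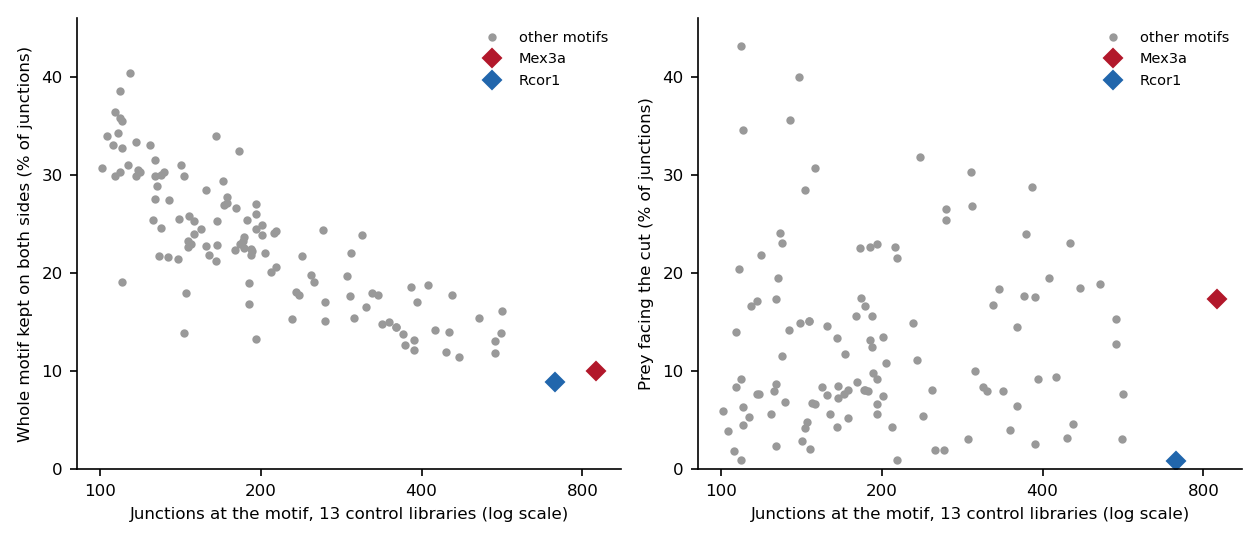
Each point is 1 of the 118 interchromosomal motifs with at least 100 junctions in the 13 control libraries; the x axis is the number of junctions (log scale) and the y axes are the percent that kept the whole motif (left) and the percent with prey facing the cut (right). Mex3a and Rcor1 are the 2 motifs with the most junctions and the lowest shares on the left, and on the right Rcor1 lies at the bottom of the range and Mex3a in the upper part.

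The Mex3a prey that faced the cut came back to the same few positions in many libraries. Of the 253, 109 began within 50 bp and 194 within 100 bp of the cut. No alignment ran across the motif, and 163 (64.4%) ended inside it or within 10 bases of it. The whole bait motif was kept in 126. In 102 of the 253 (40.3%), all of which kept it, the read first left the motif along the arm in which the prey lay, for 5 to 31 bases (median 9), and then changed over to the aligned prey, further out on the same arm and on the other strand. At the change both sequences shared at least 1 base in 96 of the 102, at least 3 in 85 and at least 4 in 71 (median 4).

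The stretches from the 4 most frequent positions show what was read. The motif stands first in capitals, the lower-case letters are a Mex3a arm read outwards from the cut, and the capitals after them are the same arm, from further out, read back towards the cut. Positions are those where the prey alignment begins, relative to the motif centre. Bases shared by both parts at the change are printed in lower case, so the capitals of the first, second and last stretch begin at -39, 42 and 45 bp, and those of the stretch from -58 bp are too few to be placed.
Plus-strand prey from -44 bp: GCGATCGCggagtccacCAGCTCTCTCCCA
Minus-strand prey from 46 bp: GCGATCGCgcgcggAGCGGCCTCGTGGCTG
Plus-strand prey from -58 bp: GCGATCGCggagtccacgggctcgggcTTT
Minus-strand prey from 48 bp: GCGATCGCgcgcgggCGGAGCGGCCTCGTG

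The first position held 21 junctions from 16 libraries, 18 of which first carried at least 5 bases of the arm read outwards, and its stretch was found in 17 reads. The second held 19 junctions from 16 libraries (14 with such bases, 14 reads) and the last 14 junctions from 12 libraries (14 with such bases, 8 reads). At -58 bp were 15 junctions from 11 libraries (12 with such bases, 8 reads), whereas none of the 11 junctions at -40 bp, the next position, carried them. In the first, second and last stretch, the lower-case letters are the same as those that follow the motif in a joined product printed above. Those of the stretch from -58 bp begin with the letters after the motif in the Mex3a minus-strand product and run past its printed end. A single read therefore held the bait arm, the motif, a few bases of a Mex3a arm and then more of that arm in inverted orientation. Of the 13 such Rcor1 reads, no more than 2 began at any 1 position, and 4 carried 23 to 28 bases of the arm read outwards.

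Under CK-666 the shares at both sites lay among those of their controls. Near Mex3a the 6 CK-666 libraries ranged from 1.22 to 2.37% (median 1.92%) beside 1.56 to 2.04% in their DMSO pairs. Near Rcor1 they ranged from 1.23 to 2.03% (median 1.56%) beside 1.04 to 2.16%. Treated and control values overlapped throughout. In a limma fit over 233 motifs with the pairs as blocks, the log2 change in share was 0.01 ± 0.21 for Mex3a (SE, 95% interval -0.42 to 0.45) and 0.02 ± 0.22 for Rcor1 (-0.43 to 0.47). Since these DMSO libraries were the ones from which the pair was chosen, both values are a description. By limma no motif passed (0 of 233, 0%), with 13 at an unadjusted p under 0.05. On simulated junctions with known changes at motifs of all sizes, this term recovered 10.0% of 2-fold and 59.2% of 4-fold changes. The simulation held no differences between pairs. The other motifs had fewer junctions than Mex3a and Rcor1, so these rates do not describe the pair, whose own 95% intervals are given above. A share among interchromosomal junctions is relative, so it says nothing of how many translocations formed in all.

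The Mex3a share was lower under NU7441. The 3 treated libraries stood at 0.95, 0.555 and 0.595%, beside 1.25, 2.20 and 1.37% in their DMSO pairs. The fitted change was -1.15 ± 0.30 on the log2 scale (SE, 95% interval -1.76 to -0.54), a share 0.451 times the control, with a limma adjusted p of 0.0298. Under NU7441, 5 of 233 motifs (2.15%) passed, 4 of them downwards (1.72%): Mex3a, Cmip (-1.84), Actr3 (-1.68), which encodes a subunit of ARP2/3, and Rab35 (-1.35), which encodes a small GTPase. The 1 upward call (0.429%) was the motif near Gm44948 (43 junctions in all), at 3.01. The median over all motifs was 0.17. Mex3a ranked 7th from the lowest of the 233 changes, and 34 motifs had an unadjusted limma p under 0.05. The Mex3a call was lost without NU7441 replicate 2 (-0.78, limma adjusted p = 0.233), the library with 6 Mex3a junctions, and without replicate 3 (-1.13, limma adjusted p = 0.0565). With the change still at -1.15 it was also lost in a fit of that experiment alone (limma adjusted p = 0.507), in limma without a mean-variance trend (adjusted p = 0.118), in the exact permutation test of the site alone (adjusted p = 0.50) and without any of 4 pairs of other treatments (limma adjusted p 0.0509 to 0.0570).

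Near Rcor1 the NU7441 libraries had 0.882, 0.832 and 1.30%, beside 1.54, 2.49 and 1.18%. The share was lower in the first 2 pairs and higher in the last. The fitted change of -0.71 ± 0.31 (SE, 95% interval -1.35 to -0.07) did not pass after adjustment (limma adjusted p = 0.289). Without NU7441 replicate 2 it was -0.31 (limma adjusted p = 0.600) and without replicate 3 it was -1.14 (limma adjusted p = 0.0551). Whether the sites responded differently to NU7441 was not tested. The share of interchromosomal junctions at any AsiSI motif was 53.4, 35.5 and 79.8% in the 3 treated libraries and 50.4, 67.4 and 62.7% in their controls, and with junctions at motifs as the denominator the change was -0.99 for Mex3a (limma adjusted p = 0.00383) and -0.55 for Rcor1 (limma adjusted p = 0.140).

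The actin treatments of 2 pairs each showed no called change. Wiskostatin libraries had 1.18 and 2.09% near Mex3a beside 1.47 and 2.26%, and 1.58 and 1.47% near Rcor1 beside 1.21 and 1.24%. The log2 changes were -0.21 (95% interval -0.95 to 0.54, limma adjusted p = 0.998) and 0.32 (-0.46 to 1.10, limma adjusted p = 0.998). With actin R62D-NLS the shares were 1.56 and 2.53% near Mex3a beside 1.28 and 2.51% with the empty vector, and 1.70 and 3.45% near Rcor1 beside 1.06 and 2.65%. The changes were 0.14 (-0.61 to 0.89, limma adjusted p = 0.996) and 0.52 (-0.26 to 1.30, limma adjusted p = 0.996). By limma no motif passed under either (0 of 233, 0%), with 9 and 10 at an unadjusted p under 0.05.

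**Figure D5:**
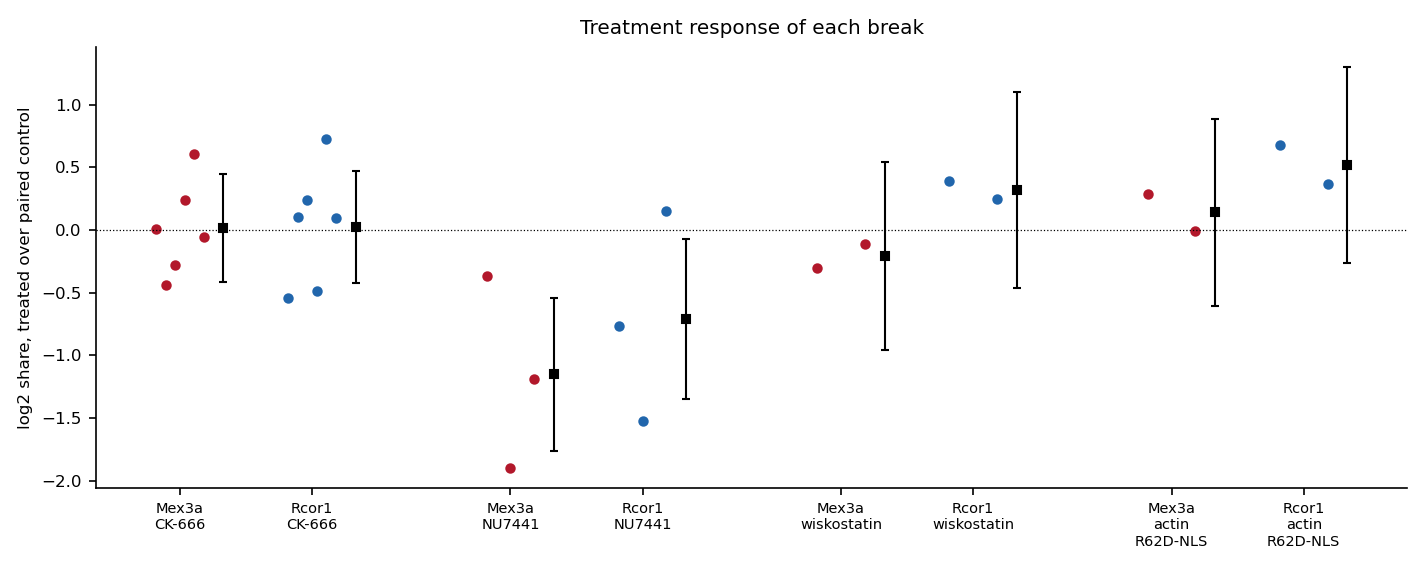
Log2 ratio of the share of interchromosomal junctions, treated over paired control; red (Mex3a) and blue (Rcor1) points are single pairs, and black squares with bars are the limma estimates with their 95% intervals. The NU7441 interval of Mex3a lies furthest below 0, and the CK-666 intervals of both sites are centred near 0.

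The structure of the joins was compared under the treatments with 3 or more pairs. Under NU7441 whole-motif joins near Mex3a made up 28.6, 50 and 18.5% beside 6.82, 10.3 and 3.85% in DMSO, a rise of 25.4 points ± 12.9. Near Rcor1 they made up 15.4, 22.2 and 10.2% beside 5.56, 9.09 and 4.49%, a rise of 9.55 ± 3.73. All 3 pairs rose at both sites, and the exact permutation test gave p = 0.25, the smallest that 3 pairs allow. The treated libraries held fewer junctions, 14, 6 and 27 beside 44, 39 and 182 near Mex3a and 13, 9 and 59 beside 54, 44 and 156 near Rcor1, and the other motifs together rose in the same pairs by 28.8, 38.4 and 7.61 points. The part of junction number in these rises was not tested.

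Under CK-666 the change in whole-motif joins was 1.20 points ± 10.4 near Mex3a (exact permutation test, adjusted p = 0.969) and 5.65 ± 12.4 near Rcor1 (exact permutation test, adjusted p = 0.875). Single pairs ran from -5.41 to 21.8 points near Mex3a and from -6.04 to 29.3 near Rcor1. The highest value at both came from pair 2, whose treated library had 3 and 5 junctions at the sites. Without CK-666 replicate 2 the Mex3a change was -2.92 points and the Rcor1 change 0.925.

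Cells without AsiSI, in which Cas9 cut the bait, had little signal at either site. The 6 libraries held 0 to 3 Mex3a junctions (mean share 0.0607% ± 0.0389) and 0 to 7 Rcor1 junctions (0.0776% ± 0.0771). In the library with none, CK-666 replicate 2, 0 of 3534 interchromosomal junctions allows a share of up to 0.0849% by a limit of 3 counts, and 0.109% by the Wilson interval. The whole AsiSI motif was kept in 6 of the 9 and 6 of the 13 junctions, in 5 of the 6 libraries. Each of the 4 joined products printed above was found in 3 reads of these libraries. All 6 were sequenced in 1 run that also held 2 AsiSI libraries, those of the second wiskostatin pair, and the part of that run in these junctions was not tested.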

How the data were processed

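The deposited tables list 1 HTGTS junction per row, made by the authors with the Burrows-Wheeler Aligner on mm10 and a published translocation pipeline that filters low-quality and repeated reads (versions not given in the sources used here). Coordinates and read positions were used as deposited, so the values are counts of junctions. Junctions within 500 bp of an AsiSI motif of GRCm38.p6 were assigned to it, and genes come from GENCODE. The overlap is the number of read bases in both the bait and prey alignments. Shares are percent of junctions off chromosome 2. Sites were compared within libraries by two-sided exact sign-flip permutation tests (SciPy 1.17.1), with Benjamini-Hochberg adjustment within each measure. Treatments were fitted with limma 3.58.1 on log2 shares (0.5 added to each count) over 233 motifs with at least 30 junctions. Same-numbered libraries shared a sequencing run in 13 of 13 pairs and entered as blocks; their deviations correlated at -0.0242 to 0.262. The labels number the replicates, and p-values measure the spread between these libraries. Sites, lists and tests were chosen with earlier results of these data known. Motifs take the name of the nearest transcription start. Named were the members, the 3 motifs most similar to each and the next 3 by junction number, and the other motifs called under NU7441 were named after their values were seen. The 12 Hi-C samples were not used here.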

Additional observations from a re-analysis of the deposited data

Results flagged for a closer look

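Of 24 sets of libraries or pairs checked for a value far from the rest, 4 had one, where chance alone flags about 1 in 20. Near Rcor1, the log2 ratio of plus to minus strand was 2.15 in CK-666 replicate 1 (18 junctions), with the next highest of the 6 libraries at 0.90. Prey facing the cut made up 6.06% of Rcor1 junctions in CK-666 replicate 6 (33 junctions), with the next at 1.92%. In pair 2 of the CK-666 experiment, whole-motif joins were higher after treatment by 21.8 percentage points near Mex3a (3 treated junctions) and by 29.3 near Rcor1 (5 treated junctions), with the next pairs at 0.837 and 6.71.

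Libraries from cells without AsiSI, which entered no comparison of the sites, held 9 junctions near Mex3a and 13 near Rcor1.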

How the results depend on the processing

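Of 528 recalculations of 27 results, 10 turned the direction, 15 lost a call, 7 gained one and 3 moved a share by more than its SD. The cause of the changes listed here was not tested.

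The Mex3a share was 2.63% of junctions at motifs and 1.33% of all junctions over 10 kb from the bait, and the Rcor1 share 2.34% of junctions at motifs. Without prey facing the cut (chosen after seeing the data), the log2 ratio of Mex3a to Rcor1 was -0.0889, and with single libraries left out it ran from 0.0383 to 0.231. The difference between the sites in motif loss was 1.35 points beyond 20 bases, -0.172 beyond 50 bases, -4.15 in a 50-bp window and -0.382 without prey facing the cut. Against the other motifs, beyond 20 and 50 bases, Mex3a stood at 2.59 and -0.0877 and Rcor1 at 1.24 and 0.0848. The difference between the sites in whole-motif joins passed with each distinct junction once (4.25 points), in a 50-bp window (4.03) and without prey facing the cut (5.93). It ran from 1.60 to 3.45 with single libraries left out, and passed without DMSO (wiskostatin experiment) replicate 2 (3.45) or empty vector replicate 1 (3.21). The Rcor1 strand ratio passed with the 2 libraries of each pair averaged (0.39). It ran from 0.22 to 0.37 with single libraries left out, and passed without DMSO (CK-666 experiment) replicate 2.

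The NU7441 change near Mex3a stayed at -1.15 but did not pass in a fit of that experiment alone (limma adjusted p = 0.507) or in limma without a trend (adjusted p = 0.118). For the site alone the exact permutation test gave adjusted p = 0.50, and 3 pairs allow no p below 0.25. With single pairs left out the fitted change ran from -1.54 to -0.777 (limma adjusted p 0.00696 to 0.233). Leaving out CK-666 replicate 6, either wiskostatin pair or actin R62D-NLS pair 1 also ended the call (adjusted p 0.0509 to 0.0570). The CK-666 changes, none of them called, ran from -0.106 to 0.105 near Mex3a (-0.00858 with each distinct junction once) and from -0.116 to 0.136 near Rcor1, the actin R62D-NLS change near Mex3a from -0.00440 to 0.285, and whole-motif joins near Mex3a under CK-666 from -2.92 to 2.53 points.

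The pairing of libraries was also left out. Without the replicate block the NU7441 change was -1.15 near Mex3a (limma adjusted p = 0.0449) and -0.71 near Rcor1 (adjusted p = 0.366), whole-motif joins under NU7441 rose by 25.4 and 9.55 points, and no call changed. Depth limits all of these, since the thinnest library held 3 junctions near Mex3a and 5 near Rcor1.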
